A study of Mus musculus with 6 samples.

Results

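Sodium channel transcripts were followed in mouse pancreatic islets through every probe set annotated to Scn9a, Scn3a, Scn8a, Scn1a, Scn2b, Scn3b, Scn4b or Nalcn, dim ones included. These 8 genes had 23 probe sets of the 45037 that were not array controls. The islets came from OF1 male mice aged 10 weeks that were treated with bisphenol A (BPA), a compound of plastics that can act through oestrogen receptors, or with corn oil alone. There were 3 control and 3 BPA samples, with 1 Affymetrix 3′ expression array for each. The design text gives BPA at 100 µg/kg/day under the skin, as 2 injections of 50 µg/kg a day for 4 days, dissolved in tocopherol-stripped corn oil. Control animals received 100 µL of that oil, and islets were taken 16 hours after the last injection. The samples' own treatment protocol speaks of 2 days of treatment at that dose, whereas the source names speak of 1 nM for 48 hours, so the labels hold 3 accounts and do not settle the exposure. The samples are labelled as biological replicates. The design text speaks of 3 independent experiments behind each replicate, and the sources used here do not say how many mice entered each, so p-values measure the spread between these samples.

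Voltage-gated sodium channels open when a cell depolarises and carry the fast upstroke of its action potential. A large pore-forming alpha subunit (the Scn genes ending in a) is joined by small membrane-spanning beta subunits (those ending in b), which change its gating and its place in the membrane. In mouse islets, beta, alpha and delta cells all carry such currents, with Scn9a and Scn3a as the main alpha subunits. Nalcn encodes the sodium leak channel, a relative that conducts at rest and helps to set the resting potential, and is not opened by depolarisation like the others. The comparison addresses, per the series' title, the effect of short BPA treatment in vivo on islets.

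The defining markers of beta cells were bright on every array. The 8 of 9 beta cell markers with a named probe set had a mean log2 signal of 13.29 to 13.33 in controls and 13.24 to 13.37 after BPA. Islets are mixed tissue, so fewer cells of a type and less RNA per cell cannot be told apart in these values. Arrays correlated at 0.982 to 0.993 within groups and at 0.976 to 0.993 between groups. The highest correlation between groups joined control replicate 3 with BPA replicate 3, and results that follow these arrays are given with their values. All values are log2 signals as deposited, and a level of one probe set is not comparable with that of another.

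In limma's moderated test over all 45037 probe sets, 0 passed an adjusted p under 0.05, which is 0% of those tested, and 2643 (5.87%) had an unadjusted p under 0.05. The ordinary test per probe set also gave 0 after adjustment. Of the 23 sodium channel probe sets 13 were lower and 10 higher after BPA (45.1% of all probe sets were lower), with a median difference of -0.037 against 0.018 for all probe sets. At an unadjusted p under 0.05 there were 3 of the 23. Control and BPA arrays were separate, with the BPA arrays lower, for 2 of the 23 (3.96% of all probe sets) and, with the BPA arrays higher, for 1 (7.56% of all). The 2 lower ones were both of Scn9a and the higher one of Scn1a. Differences of more than 1 on the log2 scale towards lower signal were found in 0.246% of all probe sets, and the 2 Scn9a probe sets were among them. The genes were chosen with these values known, so these shares give the setting of the members and no support to them.

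**Figure D1:**
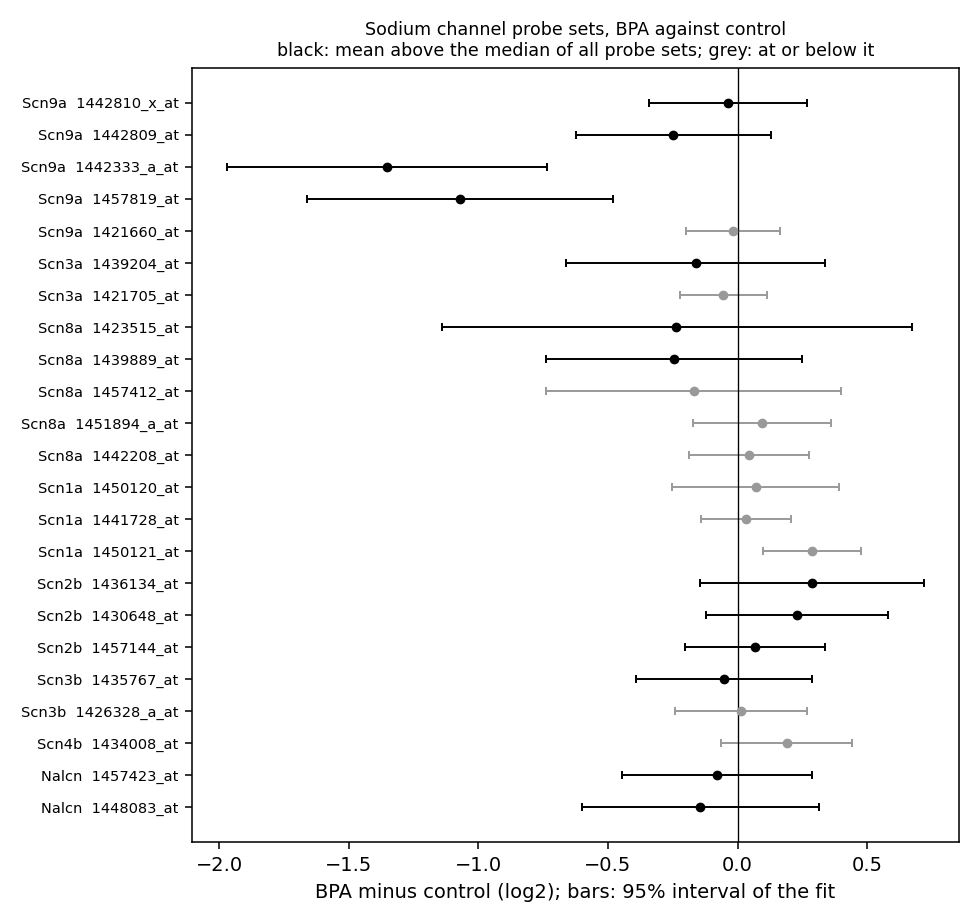
BPA minus control difference (log2) of each of the 23 sodium channel probe sets, with the 95% interval of the limma fit and n = 3 arrays per group. Probe sets 1442333_a_at and 1457819_at of Scn9a lie at -1.35 and -1.07, 1450121_at of Scn1a lies at 0.29, and the intervals of the other 20 include 0.

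Scn9a encodes the alpha subunit Nav1.7, which opens at small depolarisations and is best known from pain-sensing and sympathetic neurons. Its 5 probe sets gave differences of unlike size between BPA and control, all towards lower signal, and no ratio between them passed in limma. On probe set 1442333_a_at the controls read 9.11, 9.95 and 9.49 and the BPA arrays 7.89, 8.05 and 8.56. Every BPA array lay below every control, and the nearest values, 8.56 and 9.11, were of BPA replicate 3 and control replicate 1. The BPA mean was 8.17 ± 0.35 and the control mean 9.52 ± 0.42 (SD, n = 3 arrays each), a difference of -1.35 ± 0.26 (SE), so that the control signal was 2.55 times that after BPA. Its adjusted p was 0.808 in limma, so it did not pass.

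A second Scn9a probe set, 1457819_at, read 7.77, 8.74 and 7.97 in controls and 6.98, 7.07 and 7.22 after BPA. Here too the groups did not overlap, and control replicate 2 was the highest array, as it was on 1442333_a_at. The difference was -1.07 ± 0.25 (SE; the control signal was 2.10 times that after BPA), with an adjusted p of 0.808 in limma. With each array left out in turn the difference ran from -1.55 to -1.13 on 1442333_a_at and from -1.26 to -0.78 on 1457819_at. By the size of p these probe sets ranked 48 and 182 of 45037.

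The other 3 probe sets of the gene did not show this separation. The brightest, 1442810_x_at, read 10.38, 10.40 and 10.57 in controls and 10.53, 10.49 and 10.22 after BPA. The groups overlapped, with control replicate 3 the highest array and BPA replicate 3 the lowest. The difference was -0.037, with a 95% interval from -0.34 to 0.27, and ran from -0.095 to 0.061 with each array left out in turn. Probe set 1442809_at read 9.25, 9.002 and 9.16 in controls and 8.93, 9.12 and 8.62 after BPA, a difference of -0.25 (interval -0.62 to 0.13). BPA replicate 3 was its lowest array and BPA replicate 2 lay within the controls. The dim probe set 1421660_at read 3.91 to 4.11 in controls and 3.97 to 4.06 after BPA, near the lowest signal on any array (2.95 to 3.04), with a difference of -0.019.

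The annotation lists 1 shared source sequence for 1442810_x_at and 1442809_at and none for the other 3 probe sets of the gene. In Affymetrix names, x marks a probe set whose probes may also bind other sequences, and a marks one that is shared by several transcripts of the same gene. The sources used here do not say where in the Scn9a transcript each probe set lies. Averaged over all 5 probe sets, Scn9a differed by -0.55 between BPA and control, against -0.037 on its brightest probe set. Without the dim 1421660_at, which stood near the low end in both groups, the mean of the other 4 was -0.68. The choice of probe set thus decides the size reported for the gene.

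**Figure D2:**
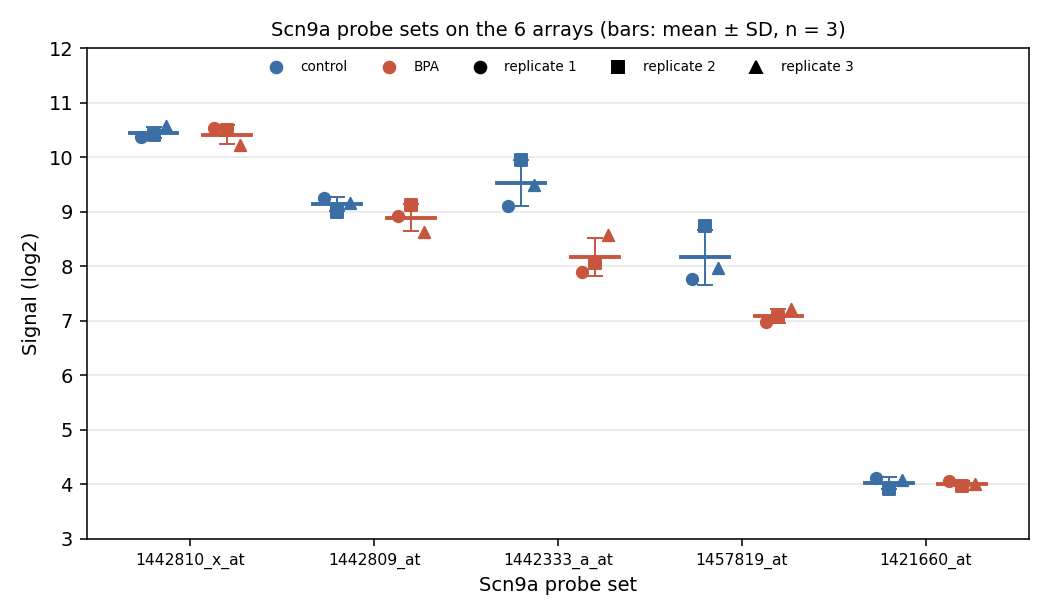
Log2 signal of the 5 Scn9a probe sets on each array (points), with the mean and SD of 3 control and 3 BPA arrays. On 1442333_a_at the BPA arrays span 7.89 to 8.56 and the controls 9.11 to 9.95, whereas on 1442810_x_at both groups lie between 10.22 and 10.57.

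Whether 2 probe sets of a gene differed unequally between the groups was tested on their log2 ratio, for all 30372 pairs of probe sets of the 9010 genes with 2 or more. None of these pairs passed in limma (0 at an adjusted p under 0.05, or 0%), and 1957 (6.44%) had an unadjusted p under 0.05. The ratio of 1442810_x_at over 1442333_a_at was 1.26, 0.44 and 1.08 in controls and 2.64, 2.44 and 1.65 after BPA (log2). All 3 BPA arrays lay above the controls, with a difference of 1.31 ± 0.31 (SE, adjusted p = 0.614). For 1442810_x_at over 1457819_at the ratio was 2.60, 1.66 and 2.60 in controls and 3.55, 3.42 and 3.00 after BPA, a difference of 1.03 ± 0.29 (SE, adjusted p = 0.671), again without overlap.

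The ratios that set 1442809_at against the same probe sets did not separate the groups. Over 1442333_a_at it read 0.14, -0.95 and -0.32 in controls and 1.04, 1.07 and 0.059 after BPA, with BPA replicate 3 inside the controls (difference 1.10 ± 0.36, SE, adjusted p = 0.704). Over 1457819_at the difference was 0.82 ± 0.33 (SE, adjusted p = 0.756), also with overlap. Between the probe sets that were lower after BPA, 1442333_a_at and 1457819_at, the ratio was 1.36 ± 0.15 in controls and 1.08 ± 0.23 after BPA (SD, n = 3 per group), and the groups overlapped. Between 1442810_x_at and 1442809_at it was 1.31 ± 0.16 in controls and 1.52 ± 0.13 after BPA, also with overlap. Of the 10 Scn9a ratios 5 differed by more than 1 on the log2 scale and 4 had groups without overlap. Among the 6 ratios without the dim 1421660_at these were 3 and 2; a ratio to the dim probe set follows the other probe set alone. These ratios share probe sets and are not independent. Over all pairs 0.629% differed by more than 1 and 12% had groups without overlap, and of the 463 genes with 5 probe sets 15 (3.24%) held a pair with a difference of more than 1. The other 19 pairs of the sodium channel genes differed by 0.34 or less in size, and 0 of them had an unadjusted p under 0.05 in limma. Groups did not overlap for 2 of these 19, beside the 12% of all pairs.

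**Figure D3:**
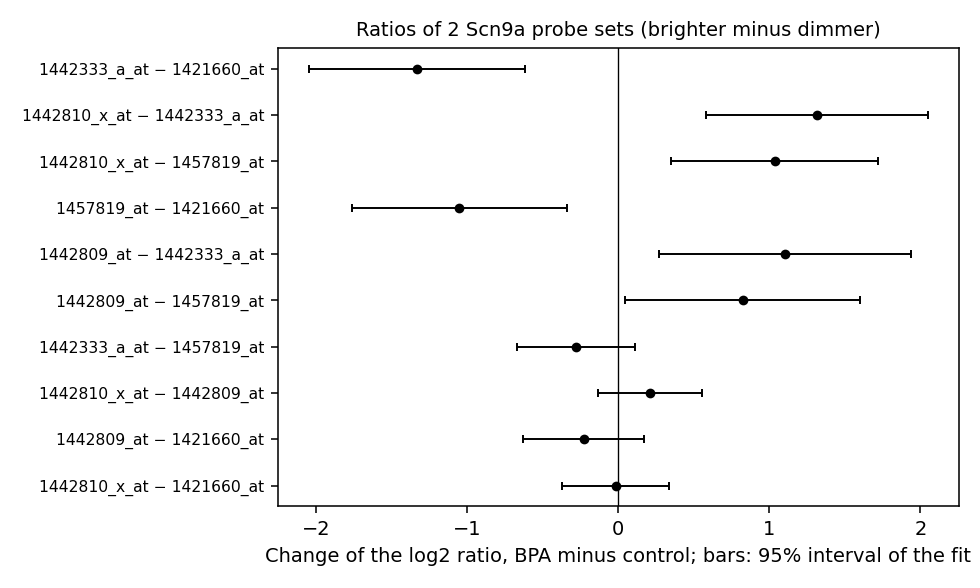
BPA minus control difference of the log2 ratio of each pair of Scn9a probe sets (brighter minus dimmer), with the 95% interval of the limma fit over 30372 pairs and n = 3 arrays per group. The 5 pairs at sizes of more than 1 each join 1442333_a_at or 1457819_at with one of the other 3 probe sets.

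The balance between the 3′ and 5′ ends of the array's control transcripts also separated the groups. The 3′ minus 5′ log2 signal of the Actb controls was 3.35 to 3.80 in control arrays and 2.61 to 2.98 after BPA, and that of Gapdh was 3.40 to 3.79 and 2.58 to 2.99. Control replicate 2 had the highest balance on both transcripts (3.80 and 3.79) and the highest Scn9a signal on 1442333_a_at and 1457819_at. This balance ran with the groups, so balance and treatment cannot be told apart in these arrays. Its part in the Scn9a result, and in every other difference given here, was not tested. Sympathetic neurons express Scn9a too. Of 10 nerve markers with a named probe set 7 were higher after BPA, where 60.3% of all genes were higher. The mean log2 signal of the 10 was 7.81, 7.83 and 7.38 in controls and 8.12, 7.87 and 7.87 after BPA. Control replicate 3 thus stood apart, and the other controls lay close to BPA replicates 2 and 3. Th, Prph and Gap43 had the smallest p. The enzyme of catecholamine synthesis Th read 9.42, 9.78 and 9.81 in controls and 10.59, 10.59 and 10.06 after BPA (adjusted p = 0.808 in limma). Prph read 7.67, 8.23 and 7.09 against 8.83, 7.93 and 8.45, and Gap43 7.26, 7.22 and 6.73 against 7.87, 7.54 and 7.22. The RNA-binding protein gene Elavl4 was lower, at 9.44, 9.49 and 8.996 in controls and 9.17, 9.12 and 8.78 after BPA, while Dbh differed by -0.017 and Phox2a, below the median of all probe sets, by -0.0073. The part of nerve in the Scn9a values was not tested.

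Scn9a lies on chromosome 2 in a row of sodium channel genes, between Scn1a and Scn7a. The lncRNA genes Gm13629 and Gm35265 have spans that overlap it in the annotation, and the sources used here do not state the strand of each probe set's target. Gm13629 had 1 probe set, 1429922_at, at 4.41 to 4.61 in controls and 4.41 to 4.55 after BPA, which is near the low end of the arrays. The 250 bases before the Scn9a transcript start in the RefSeq promoter table (GRCm38.p6, chr2:66634963-66635212, minus strand) hold 152 bases inside the annotated span of the gene, which begins further upstream, and 98 outside it. They are shown because BPA binds oestrogen receptors, which act on response elements in DNA:

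Scn9a promoter: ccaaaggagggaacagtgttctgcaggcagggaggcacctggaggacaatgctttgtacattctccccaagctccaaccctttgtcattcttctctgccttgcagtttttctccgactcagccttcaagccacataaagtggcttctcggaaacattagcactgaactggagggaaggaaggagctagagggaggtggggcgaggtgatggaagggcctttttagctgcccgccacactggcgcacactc

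The stretch stands in lower case throughout, since capitals would mark a match and there was none. Searched on both strands were the full oestrogen response element (GGTCA and TGACC with any 3 bases between them, in 0.06% of 32851 promoter windows of that length), its half-site (AGGTCA, 14.02%, which may lie within other elements), the AP-1 site (TGANTCA, 6.75%), the GC box (GGGCGG, 32.74%) and the TATA box (TATAAA, 12.37%). The GC content was 54.4%, against a median of 52.4%. The table held 7 windows for 6 of the 8 genes, with none for Scn3a and Scn3b, and 1 window of Scn8a held the half-site. A missing match says only that these letters are not in this window.

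Scn3a encodes Nav1.3, the other main alpha subunit of islet cells. Its brighter probe set, 1439204_at, read 7.07, 7.05 and 7.40 in controls and 6.70, 6.89 and 7.44 after BPA. BPA replicates 1 and 2 were the lowest arrays, and both replicate 3 arrays were the highest. The difference was -0.16 ± 0.21 (SE, interval -0.66 to 0.34, adjusted p = 0.919 in limma). Probe set 1421705_at lay near the low end, at 4.06 to 4.12 in controls and 3.96 to 4.13 after BPA.

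Scn8a encodes Nav1.6, an alpha subunit of the axon initial segment in neurons, and on most of its 5 probe sets the replicate 3 arrays were the highest. Probe set 1423515_at read 7.45, 7.69 and 8.54 in controls and 7.15, 7.47 and 8.36 after BPA. Both replicate 3 arrays stood above the other 4, and the groups overlapped. The difference was -0.24 ± 0.38 (SE, adjusted p = 0.934). Probe set 1439889_at read 7.46, 7.48 and 8.11 in controls against 7.24, 7.41 and 7.66 after BPA, a difference of -0.25 ± 0.21 (SE, adjusted p = 0.888), and 1457412_at read 6.29, 6.16 and 6.86 against 5.998, 6.14 and 6.66.

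On 4 of the 5 Scn8a probe sets, and on 1439204_at of Scn3a, both replicate 3 arrays were the highest pair of the 6, as were those of 12.9% of all probe sets. The same arrays held the least signal of acinar cell markers, a measure of exocrine tissue in the preparation. The mean log2 signal of 9 such markers was 12.09 on the third control array and 13.16 on the third BPA array, against 13.67 to 14.58 on the other 4. The part of exocrine tissue in the Scn8a values was not tested. Without both replicate 3 arrays the Scn8a differences were -0.26 on 1423515_at, -0.15 on 1439889_at and -0.15 on 1457412_at. Without control replicate 3 alone they were 0.089, -0.035 and 0.044, and without BPA replicate 3 alone -0.59, -0.36 and -0.37, so a single array turned the sign or moved the size. The dim Scn8a probe sets 1451894_a_at and 1442208_at read 4.82 to 5.40 over all 6 arrays and differed by 0.095 and 0.044. On 1451894_a_at the replicate 3 arrays led by little, with control replicate 3 at 5.32 and BPA replicate 2 at 5.30. Probe set 1457412_at also lay below the median of all probe sets, and probe sets of 1 gene are not independent.

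**Figure D4:**
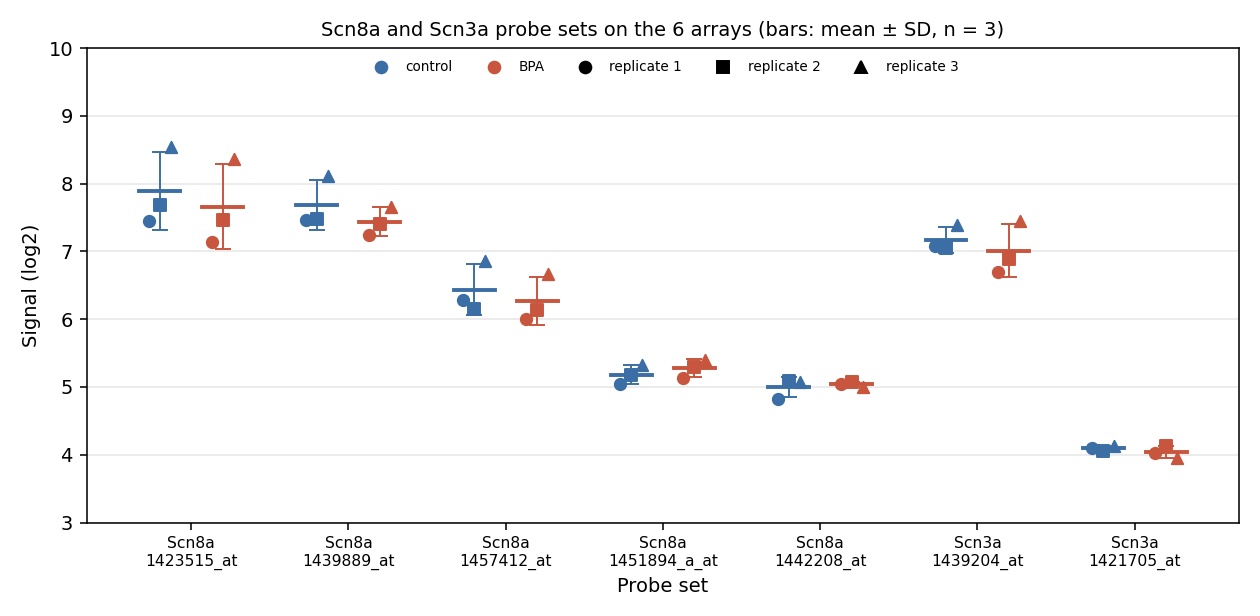
Log2 signal of the Scn8a and Scn3a probe sets on each array (points), with the mean and SD of 3 control and 3 BPA arrays. The replicate 3 arrays (triangles) are the highest in both groups on 4 Scn8a probe sets and on 1439204_at of Scn3a, for example at 8.54 and 8.36 on 1423515_at.

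Scn1a encodes Nav1.1, an alpha subunit best known from inhibitory neurons. All of its 3 probe sets lay below the median of all probe sets (6.605). Probe set 1450121_at read 3.95, 3.80 and 3.86 in controls and 4.06, 4.15 and 4.27 after BPA. The groups did not overlap, and the difference was 0.29 ± 0.08 (SE, adjusted p = 0.815 in limma). It stood near the low end of the arrays. Probe set 1450120_at, listed with the same source sequence, read 5.71 to 6.01 in controls and 5.81 to 6.17 after BPA, a difference of 0.070, and 1441728_at differed by 0.033.

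Of the beta subunits, Scn2b, whose product is bound covalently to alpha subunits, had 3 probe sets that were all higher after BPA without passing. Probe set 1436134_at read 7.31, 7.08 and 6.96 in controls and 7.30, 7.17 and 7.75 after BPA. The difference of 0.29 ± 0.18 (SE, adjusted p = 0.867) was 0.11 without BPA replicate 3 and 0.037 without both replicate 3 arrays. Probe set 1430648_at read 6.97, 6.73 and 6.53 in controls and 6.91, 6.88 and 7.13 after BPA, a difference of 0.23 ± 0.15 (SE, adjusted p = 0.867) that was 0.041 without both replicate 3 arrays. On 1457144_at the groups read 6.64 to 6.86 and 6.73 to 6.90.

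Scn3b, a beta subunit that binds alpha subunits without a covalent bond, read 8.36, 8.61 and 8.22 in controls and 8.42, 8.21 and 8.40 after BPA on 1435767_at. The groups overlapped and differed by -0.052 (interval -0.39 to 0.29). Its dim probe set 1426328_a_at differed by 0.013. Scn4b, which like Scn2b is bound covalently and contributes to resurgent current, had 1 probe set, 1434008_at, below the median of all. It read 5.44, 5.64 and 5.56 in controls and 5.87, 5.72 and 5.62 after BPA, a difference of 0.19 ± 0.11 (SE, adjusted p = 0.866), with BPA replicate 3 inside the range of the controls. Scn4b lies next to Scn2b on chromosome 9.

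Nalcn, the leak channel, had 2 probe sets above the median of all. Probe set 1457423_at read 10.29, 10.03 and 10.40 in controls and 9.95, 10.36 and 10.16 after BPA, which overlapped and differed by -0.079 ± 0.156 (SE, interval -0.45 to 0.29). On 1448083_at the controls read 8.59, 8.45 and 8.45 and the BPA arrays 8.35, 8.72 and 7.99, so BPA spanned a wider range than the controls on both sides. Of its auxiliary subunits, Unc80 read 11.70 to 11.86 in controls and 11.66 to 11.99 after BPA, and the probe set of Unc79 lay near the low end (3.81 to 4.24 in controls).

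Genes around these channels were counted by the brightest probe set of each, and 0 of them passed in either direction in limma, where 4.94% of all 18193 genes had an unadjusted p under 0.05 and 39.7% were lower after BPA, with a median difference of 0.036. Of 4 other sodium channel subunits 1 was lower and 3 were higher (median 0.091). Scn7a, which encodes the sodium sensor Nax of glia and other non-neuronal cells, read 8.75, 9.12 and 7.54 in controls and 9.15, 8.94 and 8.79 after BPA, with control replicate 3 apart from the rest. The mean of the 6 glia markers with a named probe set was lowest there too, at 7.16 against 7.49 to 7.77 on the other arrays. Single markers could differ, such as Mbp, at 10.92 there and 10.67 on BPA replicate 3. The means of the acinar, stellate, nerve and immune markers were also lowest on control replicate 3 (12.09, 8.97, 7.38 and 8.61), whereas that of the endothelial markers was not. The part of any of these cells in the Scn7a values was not tested. The other 3 of these subunits all lay below the median of all probe sets. Scn11a differed by 0.099, Scn2a by 0.083 and Scn10a by -0.027.

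Of 15 partners that bind or regulate sodium channels 7 were lower and 8 higher (median 0.13), and 2 of the higher ones had an unadjusted p under 0.05. Fgf13, a fibroblast growth factor homologue that binds the tail of alpha subunits inside the cell, read 6.86, 6.64 and 6.41 in controls and 7.29, 6.93 and 7.28 after BPA. The groups did not overlap, and the difference was 0.53 ± 0.16 (SE, adjusted p = 0.825 in limma). Rangrf, which helps to bring sodium channels to the cell surface, differed by 0.30 ± 0.12 (SE, adjusted p = 0.837) and Dpysl2, a microtubule-binding protein that affects the surface level of Nav1.7, by 0.18 ± 0.09 (SE, adjusted p = 0.854). Nedd4 and Nedd4l, ubiquitin ligases that remove sodium channels from the membrane, differed by -0.077 and -0.11.

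Of 8 epithelial and acid-sensing sodium channels 2 were lower and 6 higher (median 0.063), led by Scnn1a, the alpha subunit of the epithelial channel, at 7.46 to 7.49 in controls and 7.59 to 7.80 after BPA. The acid-sensing Asic2, Asic3, Asic4 and Asic5 lay below the median of all probe sets. The sodium pump and exchangers had 8 genes with a named probe set, 3 lower and 5 higher (median 0.087). Among them Slc8a3, a sodium-calcium exchanger below the median of all probe sets, differed by 0.34 ± 0.11 (SE, adjusted p = 0.830). All 6 measured genes listed as lying within or near the chromosome 2 channel row were lower after BPA (median -0.15). This held as deposited and under each of the 3 other scalings of the same arrays. On the brightest probe sets 0 had an unadjusted p under 0.05 in limma, and of all 17 probe sets of these genes 1 had. Csrnp3 and B3galt1 lay below the median of all probe sets. Ttc21b, beside Scn1a, read 9.26 to 9.36 in controls and 9.04 to 9.21 after BPA without overlap (adjusted p = 0.866). Of 11 other channels of the beta cell action potential 7 were lower and 4 higher (median -0.018), a split that became 5 and 6 under median centring. Kcnj11 of the ATP-sensitive potassium channel differed by 0.18 and the calcium channel gene Cacna1e, below the median of all probe sets, by 0.27. The calcium channel gene Cacna1a had the largest difference in size of these 11, at -0.44 ± 0.48 (SE, adjusted p = 0.907), and Cacna1c differed by -0.19.

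**Figure D5:**
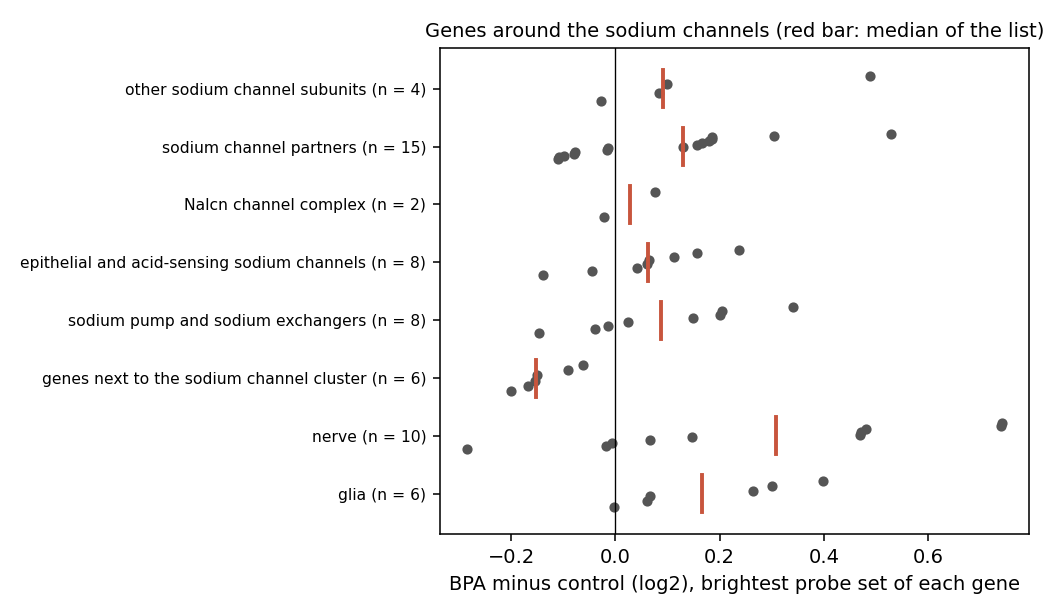
BPA minus control difference (log2) of the brightest probe set of each gene in 6 lists of genes around the sodium channels and in the nerve and glia marker lists (points), with the median of each list (red bars). The genes within or near the channel row have a median of -0.15 and the nerve markers one of 0.31, and 0 genes passed an adjusted p under 0.05.

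The genes whose values ran most like the Scn9a probe sets over the 6 arrays differed from one probe set to the next. For 1442333_a_at they were Zfp618 (Pearson r = 0.993), Thumpd2 (0.992) and 2610005L07Rik (0.991), and for 1457819_at they were Tra2b (0.991), Vps37a (0.983) and 2610507B11Rik (0.982). For 1442810_x_at they were Cd44 (0.984), Chd1 (0.984) and Inpp5d (0.972), and for 1442809_at Rnf180 (0.992), Angel2 (0.992) and Ube2r2 (0.981). These coefficients describe 6 points each, picked as the highest of 19383 probe sets that share the same arrays, and between 10 and 37 probe sets reached more than 0.95 with each.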

How the data were processed

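Each probe set has 1 log2 value on each array in the table that the authors deposited (array medians 6.55 to 6.65, highest values 15.24 to 15.32). MAS5 is named without a version or role, per the submitters' processing notes, and the sources used here do not name the method that summarised and scaled the probes. The table held no detection calls, so nothing shows which dim probe sets were detected. Values were used as deposited. The 64 array controls among the 45101 probe sets were left out, and no other filter was applied, since the member genes were taken with their dim probe sets. Of the 45037 left, 34945 had 1 gene in the platform annotation, 932 several and 9160 none. Member genes, gene lists and tests were chosen with earlier results of these data known.

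Differences between BPA and control arrays were tested with limma 3.58.1 (R 4.3.3), by lmFit and trended eBayes. Tests were two-sided, with p-values adjusted by Benjamini and Hochberg over all probe sets and a threshold of 0.05. The log2 ratio of each pair of probe sets of 1 gene was tested likewise over all 30372 pairs. All 23 member probe sets are described, of which 13 had a mean above the median of all (6.605). From the other gene lists up to 3 genes each were named, those with the smallest p on their brightest probe set, and a few more, named after their values were seen, for their role or their direction. Likeness was taken for Scn9a probe sets above the median. Both tests were also run on simulated data with independent noise. Such data lack the shifts that the arrays share here, so that run does not show how the tests behave under them. Alternatives were other scalings, filters on dim probe sets, untrended and robust eBayes, a block for the replicate number, arrays left out and an ordinary test. With 3 against 3 arrays an exact permutation test cannot go below 0.1, and none was used. Figures were drawn with matplotlib.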

Additional observations from a re-analysis of the deposited data

How the results depend on the processing

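The counts of 0 probe sets and 0 pairs at an adjusted p under 0.05 held under every alternative that was run, among them 6 fits that leave out 1 array each; without the adjustment 2643 probe sets had a p under 0.05 (1545 higher, 1098 lower). The number of arrays limits what these counts can show. Over 14 to 16 alternatives each, 11 of the 23 sodium channel probe sets kept the sign of their difference, 1442333_a_at (-1.56 to -1.13) and 1457819_at (-1.26 to -0.78) of Scn9a among them, and 12 changed it at least once. Of the 29 pairs 16 kept theirs. Only the scalings and the fits with arrays left out could change a sign. The filters, the other eBayes settings, the block and the ordinary test leave the difference as it is. Median centring does so too for a pair. The smallest adjusted p of any member under any alternative was 0.232 for a probe set and 0.124 for a pair. Scaling moved the median of all probe sets from 0.018 to 0.040 (median centring) or -0.0072 (cyclic loess), and the share of probe sets lower after BPA from 45.1% to 39.4% or 52.1%. Of the Scn9a probe sets 5 of 5 were lower as deposited, under quantile normalization and under cyclic loess, and 4 of 5 under median centring, while the 3 of Scn2b were higher under each; of the 23 probe sets 12 to 14 were lower. Among partners the split of 7 lower and 8 higher became 5 and 10 under median centring, and the Nalcn complex, pump, beta cell, nerve and glia lists also changed their split under at least 1 scaling. Deviations of same-numbered arrays correlated at 0.476, 0.078 and 0.706 for replicates 1 to 3, and those of arrays with unlike numbers at -0.665 to 0.427. The labels do not say that a number marks a shared day, so the numbers were not taken as pairs in the main fit. The fit with the replicate block left the count at 0 and gave 1442333_a_at an adjusted p of 0.232 and 1457819_at one of 0.266.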
